A study of Homo sapiens with 9 samples.

Results

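The clustered replication-dependent histone genes were examined in BEAS-2B cells, an immortalized human bronchial epithelial line grown in serum-containing medium. The set was defined as protein-coding genes named H1-1 to H1-5 or H2AC, H2BC, H3C or H4C with a number, with at least 10 counts in at least 3 of 9 libraries. Of 69 protein-coding genes with such names among the 63187 genes of the count table, 32 passed the count rule. They were 2 of 5 H1 genes, 7 of 17 H2A genes, 13 of 19 H2B genes, 4 of 13 H3 genes and 6 of 15 H4 genes. Cells were left untreated (control) or received e-cigarette aerosol condensate at 2% of the medium volume, with harvest after 24 h. The PG/VG condensate came from the carrier liquid alone, propylene glycol and vegetable glycerine, and the EC condensate from a liquid with 18 mg/mL nicotine and a Virginia tobacco flavor. Each condition had 3 libraries, numbered 2, 3 and 4, and the sample labels give the same number as the batch without saying what a batch stands for. The study calls the replicates biological, but nothing in the labels says how far the cultures were separate, so p-values measure the spread between these libraries.

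Core histones H2A, H2B, H3 and H4 form the nucleosome, and linker histone H1 binds the DNA where it enters and leaves. The clustered genes are the source of most new histone protein in S phase, when cells double their chromatin, and their transcription is coordinated through NPAT. Their mRNAs are known for ending in a conserved stem-loop instead of a poly(A) tail. SLBP binds the stem-loop, and the U7 snRNP with LSM10 and LSM11 directs the cut behind it. The present libraries were made from mRNA captured on poly-T beads, so the values concern transcripts that this capture retained and do not measure total histone mRNA.

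The stem-loops of members are shown because they separate the H4 genes from the other classes, with both arms of the stem in capitals and the loop in lower case (DNA letters of the GRCh38 genome, read on the strand of the gene).
H2AC6, chr6:26124669-26124684, plus strand: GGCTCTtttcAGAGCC
H2BC12, chr6:27146366-27146381, minus strand: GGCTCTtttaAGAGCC
H2AC20, chr1:149887391-149887406, plus strand: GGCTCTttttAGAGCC
H2AC11, chr6:27133515-27133530, plus strand: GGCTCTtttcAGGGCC
H4C8, chr6:26285131-26285146, minus strand: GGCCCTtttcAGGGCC
H4C14, chr1:149833032-149833047, plus strand: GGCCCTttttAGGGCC
A stem of 6 pairs around a loop of 4 bases was found 22 to 67 bases after the annotated stop codon in 65 of the 69 genes and in 31 of the 32 members. For H3C6 none was found within 200 bases of the annotated stop. The stem GGCCCT with AGGGCC was present in 14 of 14 H4 genes with a stem-loop and in 0 of the 51 others. The form with the loop tttc and the arms GGCTCT and AGAGCC was the most frequent, with 40 genes, 17 of them members. The loop ttta was found in 8 genes, of which 6 were members (H2BC4, H2BC5, H2BC7, H2BC11, H2BC12 and H3C8). H2AC11 was 1 of 2 genes with a mismatch in the stem.

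Of the 32 members, 25 lay in the histone cluster on chromosome 6, 4 at 1q21, 2 at 1q42 (H2AC25 and H2BC26) and 1 as a lone gene on chromosome 12 (H4C16). Many H2A and H2B genes lie head to head, and 12 such pairs had 5′ ends within 500 bases of each other. In 5 pairs both genes were members. The sequences between the 5′ ends of 3 of these pairs are shown because the partners of the first and the last pair differed in LFC (log2 fold change) in the batch comparison given later, and those of the middle pair hardly did (GRCh38, plus strand). Capitals mark CCAAT, ATTTGCAT (the octamer bound by OCT1) and TATAAA on either strand.
H2BC11 and H2AC11, chr6:27132796-27133042: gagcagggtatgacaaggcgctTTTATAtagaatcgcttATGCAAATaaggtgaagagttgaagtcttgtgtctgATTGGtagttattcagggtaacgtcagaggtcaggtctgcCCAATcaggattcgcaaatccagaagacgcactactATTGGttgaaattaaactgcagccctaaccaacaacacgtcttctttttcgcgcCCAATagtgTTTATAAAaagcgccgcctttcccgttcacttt
H2BC4 and H2AC6, chr6:26123927-26124144: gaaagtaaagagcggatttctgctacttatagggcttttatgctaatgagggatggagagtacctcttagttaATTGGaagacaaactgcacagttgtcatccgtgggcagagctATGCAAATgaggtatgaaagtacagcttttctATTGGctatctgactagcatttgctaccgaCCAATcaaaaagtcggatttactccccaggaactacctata
H2BC21 and H2AC20, chr1:149886683-149886917: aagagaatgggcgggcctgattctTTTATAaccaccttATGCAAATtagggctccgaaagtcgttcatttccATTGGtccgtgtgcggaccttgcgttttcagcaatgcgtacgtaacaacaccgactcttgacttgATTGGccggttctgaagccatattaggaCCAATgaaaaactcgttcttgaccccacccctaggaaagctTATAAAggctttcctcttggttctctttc
Each of the 3 sequences held the octamer 1 time, and they held CCAAT 4, 3 and 3 times. TATAAA was found 3 times between H2BC11 and H2AC11, where 2 of the matches overlap on opposite strands, 2 times between H2BC21 and H2AC20, and 0 times between H2BC4 and H2AC6. The last window stops inside a match at the annotated start of H2AC6, and the longer promoter windows of H2BC4 and H2AC6 described next both hold TATAAA.

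In RefSeq promoters (GRCh38.p14, 250 bases before to 50 after the gene start), available for 63 of the 69 genes and all 32 members, the same motifs were counted on both strands. CCAAT stood in 27 of 32 members, against 35.7% of 27305 promoters, and the 5 members without it were H4 genes. The octamer ATTTGCAT stood in 15 members, against 1.80% of all promoters. These were 10 of 13 H2B and 5 of 7 H2A members, and 0 of the H1, H3 and H4 members. Promoter windows of head-to-head partners overlap, so a motif between them can be counted for both genes. The pairs H2BC4 and H2AC6, H2BC8 and H2AC8, H2BC11 and H2AC11, and H2BC21 and H2AC20 each share 1 octamer. TATAAA stood in 19 members, against 11.95% of all promoters. A match describes letters in this window and says nothing about binding.

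Members were not equally represented in the libraries. Per length, H2BC12 had the highest level, with 95.6 CPM per kb of exon (CPM are counts scaled to library size with TMM factors, here the mean of 9 libraries). H1-2, a linker histone, followed with 23.04 and H2AC6 with 19.5. H2BC5 with 15.4 and H2BC11 with 12.8 came next, and the highest H3 and H4 members were H3C10 with 3.95 and H4C8 with 3.28. The lowest member was H2BC26 with 0.155 CPM per kb. H1-4, another linker histone, had 0.466, so H1-2 made up 97.9% of the summed H1 signal in CPM. H2BC12 supplied 26.4% of the summed CPM of all members, and together with H2AC6, H1-2, H2BC11 and H2BC5 68.9%. The members took between 0.0109% and 0.0309% of the counts of a library.

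The count rule split the named genes at low counts. Of the members, 16 had at least 10 counts in every library and 4 (H1-4, H2AC16, H2BC7 and H2BC18) in exactly 3. Among the 37 genes that did not pass, H1-3 and H2AC15 reached 10 counts in 1 library each, 27 never exceeded 5 counts, and 3 (H2BC1, H3C14 and H4C7) had none. Together the 37 genes had 32 to 86 counts per library. No member passed through batch 4 alone, but 7 would not have passed on batches 2 and 3 alone. Reads of near-identical copies were not counted if they mapped to several places. Of the 150-base windows of H4C14, H4C12 and H2AC13, 100%, 89.5% and 52.9% also occur elsewhere (in H4C15, H4C11 and H2AC14), so their counts are uncertain. Among the genes that did not pass, this share was 98.9% to 100% for H2AC18, H2AC19, H3C14, H3C15 and H4C15. For H4C11 it was 88.75%. Low or absent counts of such genes therefore do not show that they were not transcribed. Exons of H2BC4, H2BC6, H4C8 and H2BC18 overlap other annotated genes over 30.9%, 28.2%, 13.3% and 9.84% of their length, and the strand setting of the counting is not given in the sources used here. Of the genes that did not pass, H3C4 and H2AC7 overlap another gene over 96.6% and 85.3%, which limits what their low counts show.

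The annotated end of the transcript differed between members. Besides the stem-loop form, some histone genes are annotated with a longer transcript that runs on past the stem-loop. In GENCODE 44, 14 of the 31 members with a stem-loop had a transcript that ended at least 100 bases past it, against 2 of the 34 other genes with one. The 14 were H2AC6, H2AC25, H2BC4, H2BC5, H2BC6, H2BC11, H2BC15, H2BC18, H2BC21, H2BC26, H3C10, H4C8, H4C14 and H4C16. Longer exons collect more counts, and the median exon length was 1878 bases in the 16 extended genes and 494 bases in the 49 others. Per kb the medians were 0.540 and 0.296 CPM over all genes of the 2 kinds, and 1.96 and 1.80 over the members. H2BC12 and H1-2, first and second in level, belong to the genes annotated to end near the stem-loop.

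**Figure D1:**
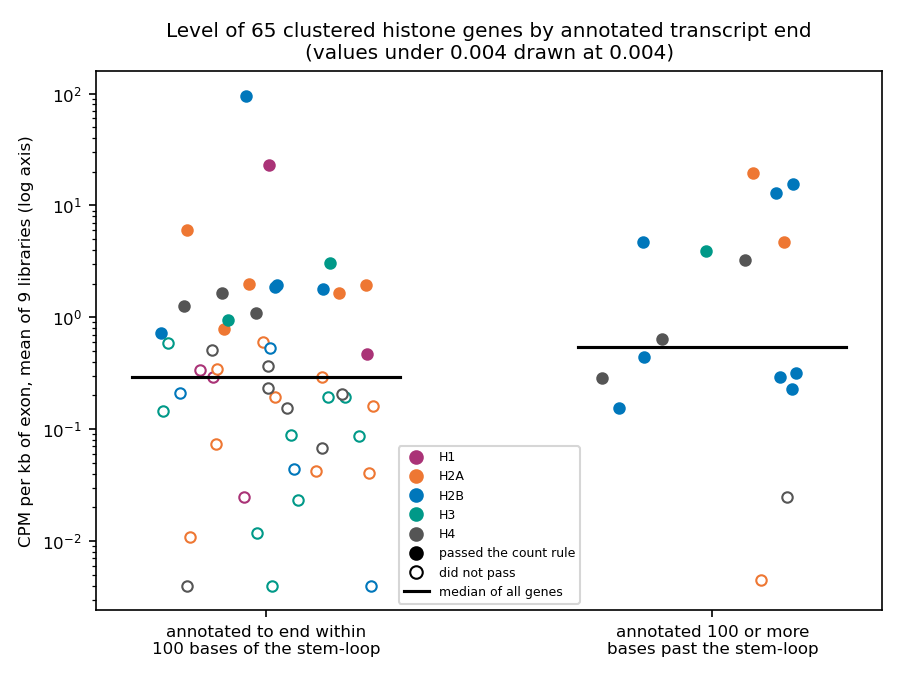
Mean level of 65 histone genes with a stem-loop (CPM per kb of exon, log axis), for genes annotated to end within 100 bases of the stem-loop and for genes annotated to extend at least 100 bases past it. Each point is 1 gene, filled if it passed the count rule, and bars are the medians of 0.296 and 0.540 CPM per kb. Of the 16 extended genes 14 were filled, and H2BC12 at 95.6 stands highest among the others.

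The libraries held 16168260 to 24917838 counts on genes. Of the epithelial markers, KRT7, KRT8 and KRT18 lay between 301 and 1174 CPM and KRT19 between 16.8 and 23.1, whereas EPCAM and CDH1 did not exceed 1.93 CPM. The mesenchymal markers VIM, FN1, CDH2 and COL1A1 ranged from 51.5 to 5545 CPM. The leukocyte markers PTPRC and CD3E had 0 to 2 counts per library and CD14 3.07 to 8.89 CPM, and the endothelial PECAM1 and VWF did not exceed 0.602 CPM, with CDH5 at 3.73 to 7.15. The members' batch 4 libraries stood apart from the other 6, as given later, so each treatment comparison was also fitted on batches 2 and 3 alone. There 25 members were tested and 0 called in each comparison. Of the 15488 genes tested there, 1216 were called in EC vs. control, 324 in PG/VG vs. control and 80 in EC vs. PG/VG. At such shares 25 genes would hold few calls, so the 0 says little.

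EC vs. control addresses the response to the complete e-cigarette condensate. No member passed the test in this comparison, where 13.5% of the 16030 tested genes did, 8.07% as higher and 5.38% as lower (edgeR's quasi-likelihood test with the batch in the model, Benjamini-Hochberg adjusted p under 0.05). At an unadjusted p under 0.05 there was 1 member, H2AC11, against 27.4% of all genes, and DESeq2 with the batch and ComBat-Seq followed by DESeq2 also called 0 members. In 0 members did the EC libraries lie apart from the controls (9.83% of all genes had all EC libraries higher and 7.42% all lower). Nothing can be read from this 0 for 18 members, whose batch 4 libraries all lay above the other 6, so the groups had to overlap. The same holds for H2AC20, whose batch 4 libraries all lay below the others. The remaining members mostly had under 10 counts in some library. The LFC of members had a median of 0.05 (all genes 0.01) and ranged from −1.12 to 0.76, with 18 of 32 above 0. The median SE of a member was 0.37, against 0.10 over all genes, and 0.16 over the 16 members with at least 10 counts in every library. Small changes in most members were therefore not detectable at this depth.

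For the abundant members the intervals were narrow. H2BC12 stood at 31.1, 29.4 and 90.4 CPM in control replicates 2, 3 and 4 and at 34.4, 37.6 and 72.0 in the EC replicates. It was higher with EC in batches 2 and 3 and lower in batch 4, with overlapping groups. Its LFC of 0.03 (SE 0.10) had a 95% interval from −0.17 to 0.24. H2AC6 had 20.1, 19.3 and 61.2 CPM in the controls and 23.01, 19.4 and 50.4 with EC. The LFC of H2AC6 was −0.04 (SE 0.10, 95% interval −0.24 to 0.16), and its EC library of batch 4 was the one below its control. H1-2 had 14.9, 12.6 and 23.8 CPM in the controls and 16.1, 15.3 and 18.6 with EC, with an LFC of −0.01 (SE 0.12, interval −0.25 to 0.23).

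H3C10 had 3.88, 3.47 and 5.91 CPM in control and 5.04, 4.26 and 6.20 CPM in EC libraries. EC was higher in all 3 batches, but the groups overlapped and the LFC of 0.25 (SE 0.17, adjusted p = 0.376 by edgeR) did not pass. H4C8 had 4.26, 3.41 and 14.5 CPM in controls and 3.69, 4.47 and 12.5 with EC (LFC −0.05, SE 0.15). H1-4 was near the detection limit, with 0.191, 0.310 and 0.394 CPM in controls and 0.0397, 0.553 and 0.397 with EC. Its LFC of 0.11 had an SE of 0.70, and the batches pointed in different directions.

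H2AC11, a core histone H2A gene, came nearest to the threshold. It had 1.46, 1.86 and 3.32 CPM in control replicates 2, 3 and 4, 1.93, 2.68 and 5.62 in PG/VG and 3.13, 2.13 and 4.86 in EC. Both exposures were above the control of the same batch in all 3 batches, while the groups overlapped, since the control of batch 4 lay above the exposed libraries of batches 2 and 3. For EC vs. control the LFC was 0.63 (SE 0.23, 95% interval 0.16 to 1.10) and the adjusted p from edgeR 0.0688. For PG/VG vs. control the LFC was 0.59 (SE 0.23, 95% interval 0.12 to 1.06) with an adjusted p of 0.142 from edgeR. With library size as the only scaling, EC vs. control gave an LFC of 0.69 and an edgeR adjusted p of 0.0413, the one setting in which a member passed. In that setting the median LFC of all genes was 0.07, against 0.01 with TMM. Without EC replicate 2 the LFC was 0.36 (edgeR adjusted p = 0.368), and over all alternatives the adjusted p ranged from 0.0413 to 0.706. Both comparisons use the same control libraries. Its head-to-head neighbour H2BC11 had LFCs of 0.22 (SE 0.12) and 0.13 (SE 0.12) in the same comparisons. Members higher with EC than control in all 3 batches were H2AC11, H2BC11, H3C2, H3C10 and H4C9, 5 of 32 against 24.6% of all genes, and H2AC20 was lower in all 3, against 21.5%. Among the controls, H3C2 and H4C9 reached 10 counts in replicate 4 alone (12 and 10). They passed the count rule only with exposed libraries, so values that admitted them also enter this direction.

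PG/VG vs. control addresses the carrier alone. In this comparison 0 members passed the test, against 4.54% of all genes (2.63% higher and 1.9% lower), H2AC11 was the 1 member with an unadjusted p under 0.05 (20.1% of all genes), and both DESeq2 analyses also called 0 members. The groups lay apart in 0 members (7.79% of all genes had PG/VG higher and 6.37% lower). For the same 18 members and for H2AC20 the batch fixed this. The median LFC was 0.07 (all genes 0.01), the range −0.82 to 0.87, and 20 of 32 lay above 0. H2BC12 had 28.9, 30.6 and 71.4 CPM in PG/VG (LFC −0.15, SE 0.10, 95% interval −0.36 to 0.05). H2AC6, at 19.7, 19.4 and 60.5 CPM, differed from the controls by an LFC of −0.02 (SE 0.10). H2AC25 had 7.56, 7.74 and 12.5 CPM in the controls and 6.18, 7.60 and 10.8 in PG/VG, lower in each batch but not past the test (LFC −0.18, SE 0.14). H3C8 had 1.21, 0.991 and 2.98 CPM in the controls and 1.43, 1.09 and 1.29 in PG/VG (LFC −0.39, SE 0.30). The low value of the PG/VG library of batch 4 stood against slightly higher values in the other batches. In all 3 batches PG/VG was higher for 5 members (H2AC11, H2BC4, H3C2, H4C9 and H4C12), against 23.6% of all genes, and lower for 3 (H2AC25, H2BC6 and H4C8), against 19.9%. Among the controls, H2BC4, H3C2, H4C9 and H4C12 reached 10 counts in replicate 4 alone (21, 12, 10 and 14). They passed the count rule only with exposed libraries, so values that admitted them also enter this direction.

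EC vs. PG/VG compares the liquid with nicotine and flavor to the carrier liquid. The paper states the ratio of propylene glycol to glycerol for the carrier liquid but not for the EC liquid. Nicotine and flavor need not be the only difference. Again 0 members passed, against 0.855% of all genes, with 1 at an unadjusted p under 0.05 (12.9% of all genes) and 0 by both DESeq2 analyses. The median LFC was 0.02 (all genes 0.0024), and 20 of 32 members lay above 0. The 1 member was H2BC7, named after its values were seen. It had 0.532, 0.656 and 0.343 CPM in PG/VG and 0.0793, 0.255 and 0.149 in EC, with an LFC of −1.64 (SE 0.59) and an edgeR adjusted p of 0.211. Its counts did not exceed 13 in any library. H2BC7 and H2AC8 were the 2 members with each EC library below each PG/VG library, against 3.37% of all genes. For the 18 members whose batch 4 libraries all lay above the others, and for H2AC20, the batch again fixed an overlap. H2BC7 passed the count rule through control replicate 4 (12 counts) and PG/VG replicates 2 and 3 (13 and 12). The PG/VG values that admitted it are thus among those that stood above EC. In all 3 batches EC was higher for H2BC11 and H2BC12 (16.8% of all genes) and lower for H2AC8, H2AC16, H2BC7 and H4C12 (14.6%). H2AC16 passed the count rule through control replicate 4 (11 counts) and PG/VG replicates 2 and 4 (12 and 18), and H4C12 also needed its PG/VG libraries to pass. H2BC12 had an LFC of 0.19 (SE 0.10, 95% interval −0.01 to 0.39) and was higher with EC in all 3 batches, with an edgeR adjusted p of 0.433. H1-2 had an LFC of 0.00 (SE 0.11), H2AC6 −0.02 (SE 0.09), H3C10 0.04 (SE 0.16), H4C8 0.03 (SE 0.15) and H1-4 −0.63 (SE 0.60).

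**Figure D2:**
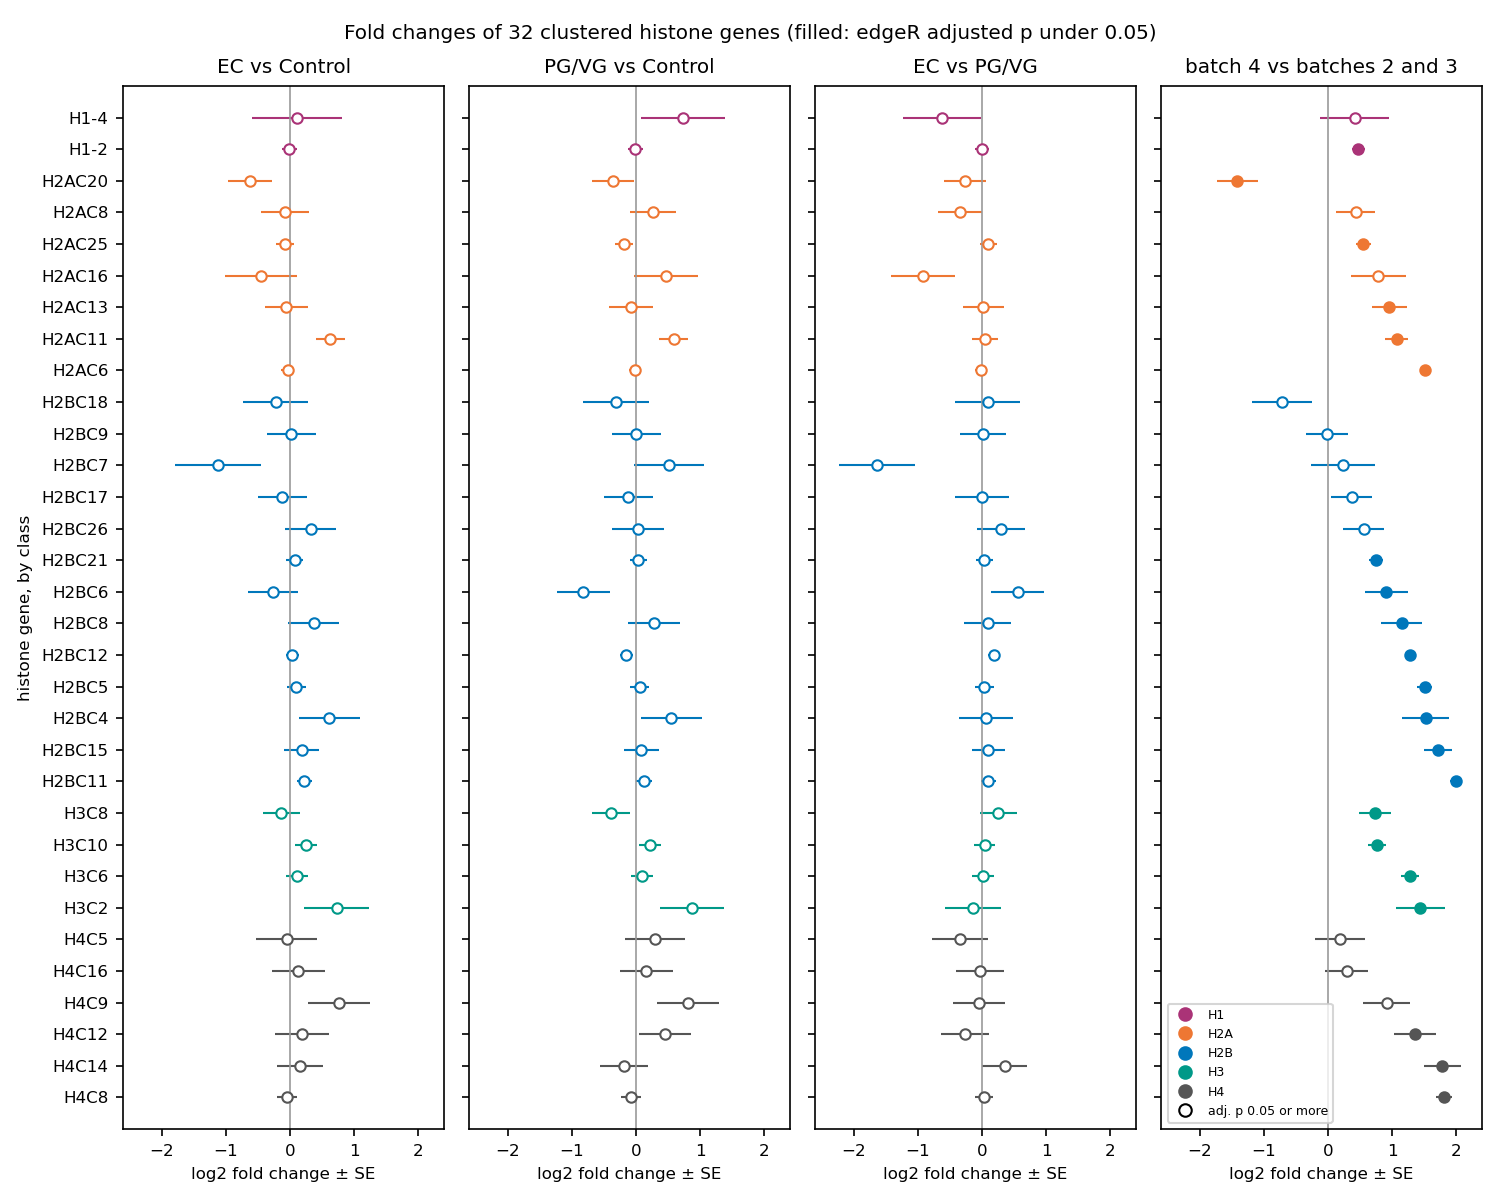
Log2 fold changes of the 32 members with their SE, by histone class, for the 3 treatment comparisons and for batch 4 vs. the mean of batches 2 and 3. Filled points passed edgeR's adjusted p of 0.05. Treatment points are open throughout and spread around 0, whereas 21 of the batch points are filled, 20 of them above 0.

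By class, the summed CPM of the members differed between exposures by less than between batches. All 32 members summed to 122, 113 and 311 CPM in control replicates 2, 3 and 4, to 121, 123 and 285 in PG/VG and to 136, 134 and 267 in EC. Within batches, EC minus control was 0.16, 0.25 and −0.22 on the log2 scale (mean 0.07 ± 0.25 SD, n = 3), so batch 4 pointed the other way. PG/VG minus control was −0.01, 0.13 and −0.12 (mean −0.0017 ± 0.13 SD, n = 3). The H2B sum in EC vs. control was higher by 0.14 and 0.42 in batches 2 and 3 and had a difference of −0.24 in batch 4 (mean 0.11 ± 0.33 SD, n = 3). The H2A sum had differences of 0.23, −0.03 and −0.25 and the H1 sum of 0.10, 0.29 and −0.35. With TMM scaling the H3 sum was the one with the same sign in each batch for EC vs. control, with 0.26, 0.18 and 0.08 (mean 0.18 ± 0.09 SD, n = 3). For PG/VG vs. control the H3 sum had 0.26, −0.14 and 0.15. The H4 sum moved little, with 0.06, 0.05 and −0.03 for EC vs. control, and with library size only it was also above 0 in each batch (0.12, 0.11 and 0.04). Under that scaling the median LFC of all genes in EC vs. control was also higher, at 0.07 against 0.01 with TMM. Sums are descriptions and were not tested.

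**Figure D3:**
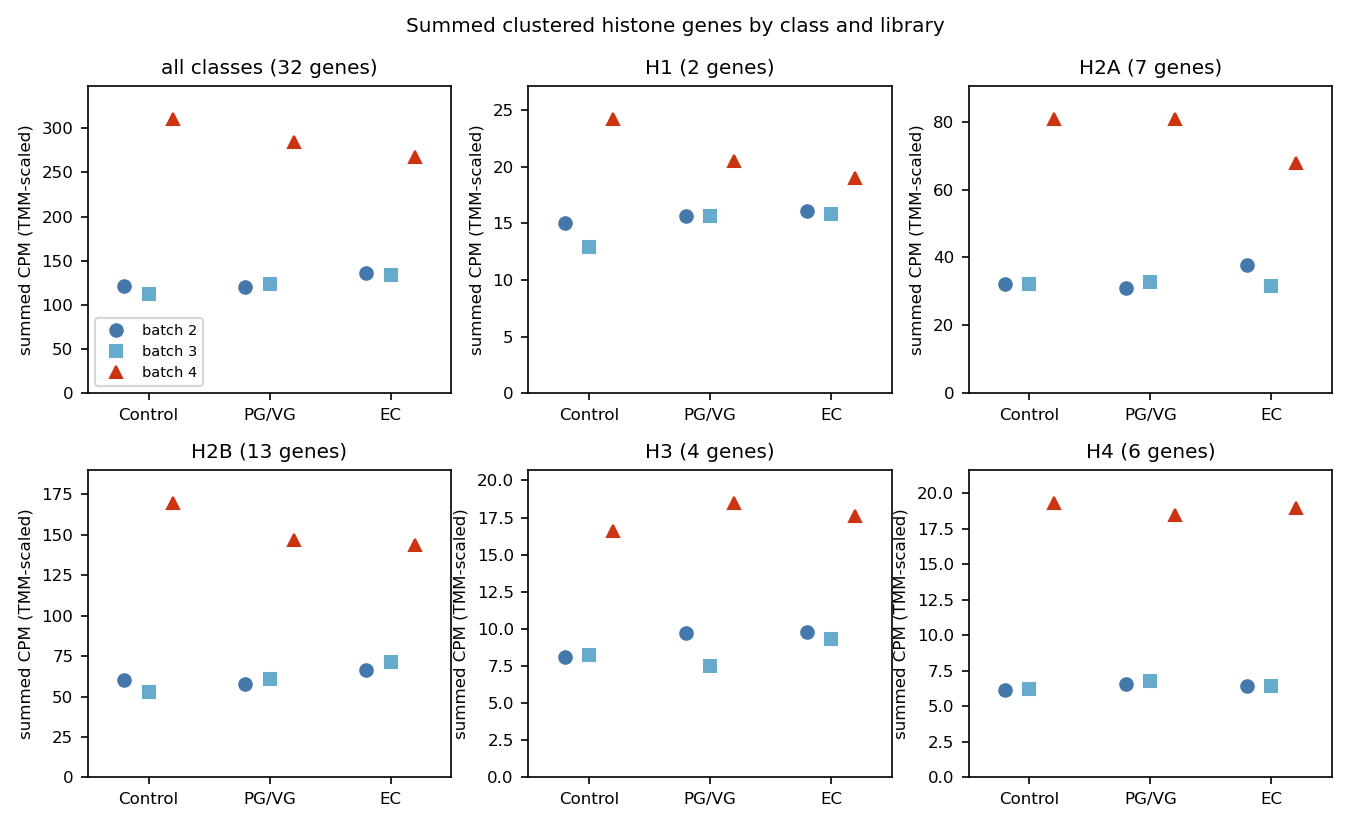
Summed CPM of the members of each histone class in each of the 9 libraries, by condition, with batches 2, 3 and 4 as separate symbols. In every class the 3 batch 4 libraries lie above the other 6, for all classes at 267 to 311 CPM against 113 to 136.

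Batch 4 stood apart in the members far more than any exposure did. The member of highest level in each class was higher there, as was H2BC11, from 1.39-fold for H1-2 to 3.97-fold for H2BC11, and for each of them this held in control, PG/VG and EC libraries. The quasi-likelihood F test of the batch called 20 of 32 members, against 34.3% of all genes. For batch 4 vs. the mean of batches 2 and 3, 20 members passed as higher, against 20.1% of all genes, and 1 as lower, against 20.5%. The median LFC was 0.85 (all genes −0.0031), and 29 of 32 were above 0, against 49.6% of all genes. An LFC above 1 was found for 13 members, against 3.29% of all genes. In 18 members all 3 libraries of batch 4 lay above the other 6, against 14.5% of all genes. Of the 25 members that would have passed the count rule on batches 2 and 3 alone, 18 were higher and 1 lower. Of the 7 that would not, 2 were higher (H3C2 and H4C12). Over the 25 alone, the median LFC was 0.91 and 11 had an LFC above 1. In 16 of them all batch 4 libraries lay above the other 6.

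H2BC11 had the largest batch LFC of the members. It stood at 5.40 and 5.94 CPM in control replicates 2 and 3 and at 27.1 in replicate 4. PG/VG had 6.96, 6.89 and 26.3 CPM, and EC 7.70, 7.49 and 27.1. The 3 libraries of batch 4 lay near each other and far above the other 6. The LFC was 1.99 (SE 0.09), with an adjusted p of 1.29e-13 by edgeR's quasi-likelihood test, and it ranked 94 of 16030 genes.

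H2AC6 rose by an LFC of 1.51 (2.84-fold, SE 0.08) and H2BC12 by 1.28 (2.43-fold, SE 0.08). H4C8 had an LFC of 1.81 (SE 0.12), H2BC5 1.51 (SE 0.12), H3C10 0.76 (SE 0.14) and H1-2 0.47 (SE 0.10). All of these passed, and in each the 3 batch 4 libraries were above the other 6. Among less abundant members, H4C14 (1.78), H2BC15 (1.71), H2BC4 (1.52), H3C2 (1.44) and H4C12 (1.36) were higher as well. H3C2 and H4C12 passed the count rule only with batch 4, so the values that admitted them also enter this LFC. The reads of H4C14 and H4C12 are limited by their copies, and exons of H2BC4 overlap HFE. The marker H1-4 had an LFC of 0.42 with an SE of 0.54 and did not pass.

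H2AC20 was the 1 member that passed as lower in batch 4. Its counts there were near the floor of the count rule, with 10 in control, 11 in PG/VG and 7 in EC. H2BC18 (LFC −0.72, SE 0.46) and H2BC9 (LFC −0.02, SE 0.32) lay below 0 without passing. The CPM of H2AC20 were 1.33, 1.73 and 0.563 in the controls, 1.39, 0.930 and 0.472 in PG/VG and 1.03, 0.979 and 0.347 in EC. In each condition the batch 4 library was the lowest. Its LFC was −1.41 (SE 0.32, edgeR adjusted p = 0.00106), while H2BC21, which shares the 235 bases between the 5′ ends with it, had an LFC of 0.75 (SE 0.11) and passed as higher. Values of H2BC21 were 8.83, 7.43 and 14.4 CPM in the controls, 7.95, 8.21 and 15.4 in PG/VG and 8.61, 10.0 and 13.0 in EC. These partners were chosen after their values were seen, and the difference between them was not tested.

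**Figure D4:**
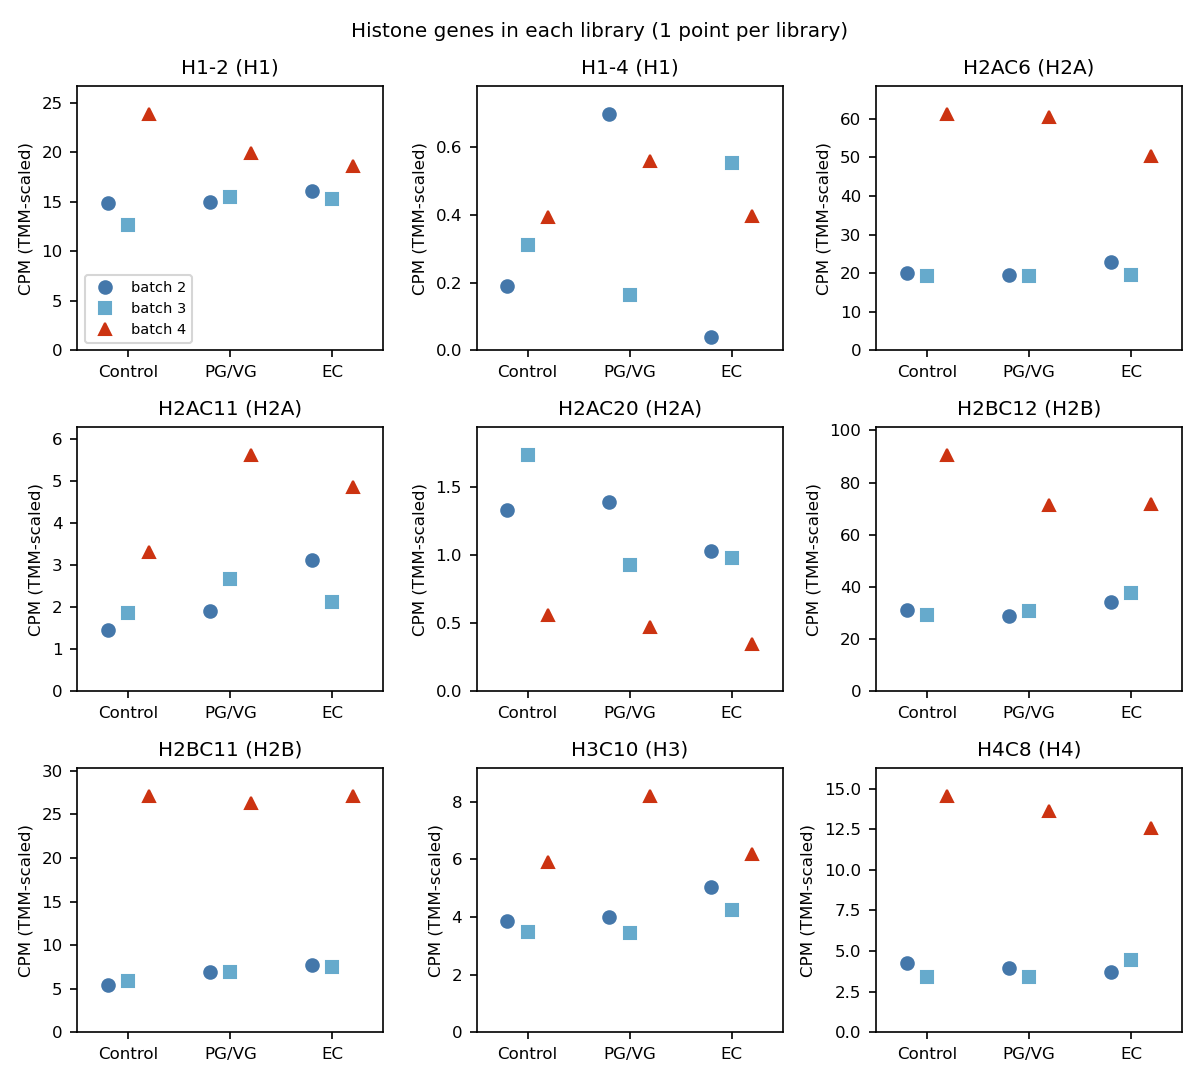
CPM of 9 members in each of the 9 libraries, by condition, with batches 2, 3 and 4 as separate symbols. Batch 4 (triangles) is highest in each condition for H1-2, H2AC6, H2AC11, H2BC12, H2BC11, H3C10 and H4C8, lowest in each for H2AC20, and without a common order for H1-4.

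Partners of the other head-to-head pairs were closer in their LFC for batch 4. H2BC4 had 1.52 (SE 0.37) and H2AC6 1.51 (SE 0.08), although their levels were 0.229 and 19.5 CPM per kb. H2AC25 had 0.55 (SE 0.12) and H2BC26 0.55 (SE 0.32), of which H2AC25 passed. H2BC11 had 1.99 (SE 0.09) against 1.07 (SE 0.18) for H2AC11, and both passed. H2BC8 had 1.15 (SE 0.32) and passed, and H2AC8 had 0.43 (SE 0.30) and did not.

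All classes had higher sums in batch 4. The ratio of batch 4 to the mean of batches 2 and 3 was 2.30 for all members, 2.94 for H4, 2.49 for H2B, 2.32 for H2A, 2.00 for H3 and 1.40 for H1. The ratio of all members was 2.65 in control, 2.34 in PG/VG and 1.97 in EC libraries, and for H1 it was 1.73, 1.31 and 1.19. For H4 it was 3.13, 2.77 and 2.95, so the order of conditions was not the same in each class. Each ratio rests on 1 library of batch 4 and 2 others, and a difference between conditions was not tested. Of the H3 members 4 of 4 passed as higher, of H2B 8 of 13, of H2A 4 of 7, of H4 3 of 6 and of H1 1 of 2. Over all genes 20.1% passed as higher. The H3 and H4 counts include H3C2 and H4C12, which passed the count rule only with batch 4.

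Members with annotated transcripts past the stem-loop and members without them both held genes that rose in batch 4. Of the 14 extended members 11 passed as higher, with a median LFC of 1.21. Of the 17 that end near the stem-loop 8 passed as higher and 1 as lower, with a median of 0.73. The difference between the kinds was not tested. Of the 15 members with the octamer 8 passed as higher and 1 as lower, and of the 17 without it 12 passed as higher. For all these groups, the shares over all genes were 20.1% higher and 20.5% lower. The 37 genes below the count rule summed to 2.87 to 4.33 CPM in batch 4 and 1.98 to 3.66 in batches 2 and 3, with a ratio of the means of 1.16.

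Genes that act with histones were listed from general knowledge, with earlier results of these data known. Of 28 S phase genes, which make and start the DNA copy that new histones package, 24 were lower in batch 4 and 0 higher. The median LFC was −0.48, and over all genes 20.5% were lower and 20.1% higher. MCM6, a subunit of the replicative helicase, had means of 200 ± 10.1, 187 ± 9.61 and 92.5 ± 7.72 CPM (SD, n = 3 libraries) in batches 2, 3 and 4. Its LFC was −1.07 (SE 0.07), and E2F1, a transcription factor of S phase entry, had −0.87 (SE 0.07). The fall of these genes and the higher values of the histone members came from the same libraries, and whether one has a part in the other was not tested.

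In the list of histone mRNA processing and transcription, 3 of 24 genes were higher in batch 4 and 8 lower. Of all genes, 20.1% were higher and 20.5% lower. SLBP, the stem-loop binding protein, had 94.9 ± 6.64, 84.7 ± 3.68 and 57.8 ± 4.34 CPM (SD, n = 3 libraries) in batches 2, 3 and 4. The LFC of SLBP was −0.63 (SE 0.06, edgeR adjusted p = 2.58e-08). ZNF473, a U7 snRNP partner in 3′ processing, had −0.62 (SE 0.08) and CTIF, which acts in the translation of histone mRNAs, −0.62 (SE 0.07). LSM10, a subunit of the U7 snRNP, was higher with an LFC of 0.42 (SE 0.07). The share of reads with a poly(A) tail cannot be read from gene counts, and the part of these genes in the histone values was not tested.

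Of 11 replication-independent histone genes, most of whose mRNAs carry poly(A) tails, 2 were higher in batch 4 (H2AX 0.20 and H3-3B 0.21) and 5 lower. The shares over all genes were 20.1% higher and 20.5% lower. H1-10 had an LFC of −0.70 (SE 0.07) and H2AJ of −0.56 (SE 0.07). Of 20 histone chaperones 3 were higher and 10 lower, against the same shares over all genes. CHAF1B, a subunit of the factor that deposits histones on new DNA, was among the lower with −0.54 (SE 0.06).

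**Figure D5:**
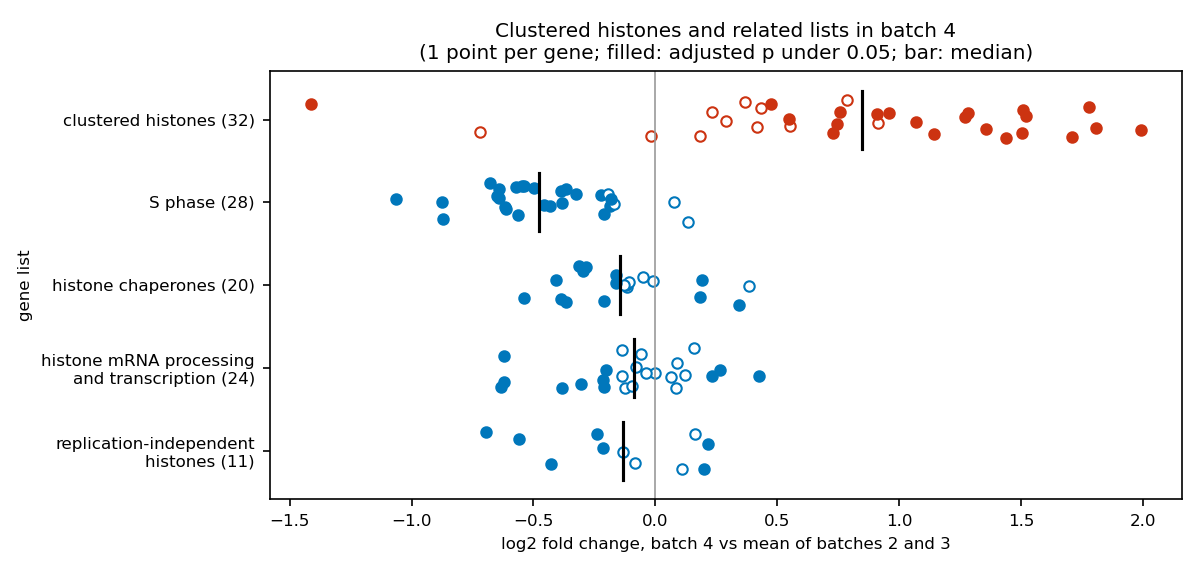
Log2 fold change of batch 4 vs. the mean of batches 2 and 3 for the 32 members and for 4 lists of related genes, with 1 point per gene, filled where the adjusted p was under 0.05, and the median as a bar. The members have a median of 0.85 and the S phase genes of −0.48.

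The related lists also held DEGs of the treatment comparisons. The processing list held 0 in each of the 3 comparisons by edgeR's quasi-likelihood test. At an unadjusted p under 0.05 it held 3 of 24 genes in EC vs. control, against 27.4% of all genes. For PG/VG vs. control there were 3 (against 20.1%) and for EC vs. PG/VG 1 (against 12.9%). SLBP had an LFC of −0.12 (SE 0.07) in EC vs. control. Of the 11 replication-independent histone genes 3 passed in EC vs. control (1 higher and 2 lower, against 13.5% of all genes), 1 in PG/VG vs. control as higher (against 4.54%) and 1 in EC vs. PG/VG as lower (against 0.855%). Among them MACROH2A2, a histone variant with a macro domain, rose in EC (LFC 0.32, SE 0.08) and in PG/VG (LFC 0.32, SE 0.08). H2AJ, 1 of the 2 lower ones, fell in EC (LFC −0.25, SE 0.08). The LFCs of this list in EC vs. control ranged from −0.47 to 0.32. In EC vs. control 2 of the 28 S phase genes passed as lower, MCM7 (−0.23) and CDC45 (−0.28). CCNE1, the cyclin of S phase entry, was the 1 that passed as higher (0.42). Of the 20 chaperones NAP1L1 was the 1 that passed, as lower (−0.24). Over all genes, 8.07% passed as higher and 5.38% as lower. No member of the clustered set passed beside them.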

How the data were processed

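The authors captured mRNA on poly-T beads. Per the submitters' processing notes and the paper's methods, reads were trimmed with fastp, aligned with STAR to GRCh38.p12 and counted on exons with featureCounts (Subread 2.0.4), which left out reads with several locations or genes. The authors deposited unnormalized counts of 63187 genes, with no adjustment for batch. All 9 columns were used. Genes were matched by Ensembl ID to GENCODE 44 (62666 matched).

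The 16030 genes that passed the count rule were fitted in edgeR 4.0.16 (R 4.3.3) with TMM scaling, robust quasi-likelihood, condition and batch, and Benjamini-Hochberg adjustment over all genes at 0.05. SE is the absolute LFC divided by the square root of F. CPM use TMM-scaled library sizes. The steps were tested on simulated counts. The number pairs libraries as the labels' batch. Deviations from the condition mean correlated at 0.301 to 0.683 in 9 same-number pairs and at −0.507 to 0.393 in 18 others.

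Members and gene lists were chosen with earlier results of these data known. Values per library were given for H1-4 and H2AC6, the highest member per class, and the 2 members of most positive and most negative LFC per comparison, if the higher group held 20 counts or more in each library. Other members with values were named after they were seen. Some results are not reported here.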

Additional observations from a re-analysis of the deposited data

How the results depend on the processing

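Alternatives were no replicate block, RLE or library-size scaling, no filter, a strict filter (10 counts in all 9 libraries), batch-adjusted DESeq2 1.42.0, ComBat-Seq (sva 3.50.0) then DESeq2, the 2 groups alone, each library left out and, chosen after seeing the data, batches 2 and 3 only. The members called remained 0 in each treatment comparison under every alternative but library size only, which gave 1 (H2AC11) in EC vs. control. Without the replicate block 0 members were called, as with the pairing, while all genes called in EC vs. control went from 2157 to 16. The median LFC for EC vs. control (0.05) was 0.18 on batches 2 and 3 only, 0.16 without control replicate 4 and −0.047 without control replicate 3. Without the replicate block it was −0.0086. For PG/VG vs. control the median was 0.0082 with the strict filter, 0.0050 on batches 2 and 3 only, and −0.051 to 0.11 with a library left out. For EC vs. PG/VG it was 0.13 on batches 2 and 3 only and −0.026 to 0.13 with a library left out. The H4 sum in EC vs. control was 0.089 with library size only, where the median LFC of all genes was 0.068. Of 471 alternative LFCs of members with values per library, 70 had another sign than reported, 0 of them called and none larger than 0.33. The members called for the batch numbered 14 to 20 and those higher in batch 4 14 to 21. The lowest counts come from the strict filter, which tested 16 members.

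Depth limits the low members. Of the 32 members 16 had under 10 counts in some library, and poly-T capture leaves their total mRNA unmeasured.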
